A study of Mus musculus with 141 samples.

Results

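The enzymes that oxidize alcohols and aldehydes were followed through 10 genes, Adh1, Adh4, Adh5 and Adh7 of the alcohol dehydrogenases and Aldh1a1, Aldh1a2, Aldh1a7, Aldh1b1, Aldh2 and Aldh3a2 of the aldehyde dehydrogenases. The genes were chosen by symbol, and all 10 of them were found among the 24423 genes quantified in every library. RNA was sequenced from liver, lung and kidney of 47 Collaborative Cross (CC) strains, which are recombinant inbred mice whose genomes are mosaics of common founder strains. A single male mouse per strain was used, 8 to 12 weeks old, that had spent 6 hours per day in clean-air chambers for 2 weeks, so all 3 groups of 47 libraries shared sex, age range and air exposure and differed by tissue. Because each strain contributed 1 library per tissue, the spread reported between strains includes the spread between individual mice and between libraries, and these cannot be told apart.

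Alcohol dehydrogenases are cytosolic enzymes that convert alcohols to aldehydes, and aldehyde dehydrogenases then convert aldehydes to acids. Liver is the main site of ethanol removal, where acetaldehyde formed by Adh1 is passed on to the mitochondrial enzyme Aldh2. The same families act on vitamin A, with retinol oxidized to retinal and retinal to retinoic acid, the signaling molecule that retinoic acid receptors bind.

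The 4 alcohol dehydrogenase genes lie in 1 cluster on chromosome 3 of NCBIM37, the build of the deposited data, all on the plus strand, with Adh7 at chr3:137880787-137896346, Adh1 at chr3:137923955-137953662, Adh4 at chr3:138078430-138093856 and Adh5 at chr3:138106057-138118463. Aldh1a1 (chr19:20676451-20717952, plus strand) and Aldh1a7 (chr19:20767443-20802052, minus strand) are neighbors on opposite strands. The others are spread over the genome, with Aldh1b1 at chr4:45811894-45817476, Aldh2 at chr5:122016036-122043833, Aldh1a2 at chr9:71063596-71144050 and Aldh3a2 at chr11:61036919-61080966.

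Aldh1a1 and Aldh1a7 are the closest relatives in the set, and their sequences show what the reads had to separate. Their coding sequences have the same length of 1506 bases and were 91.6% identical, differing at 126 positions, whereas any other pair among the 6 aldehyde dehydrogenases was between 47.4% and 69.5% identical and the alcohol dehydrogenases were between 60.1% and 68.9% identical to one another. Coding positions 831 to 890, a stretch chosen because it holds a typical number of differences, are printed from the GENCODE vM1 transcripts with the 4 differing bases in capitals.
Aldh1a1: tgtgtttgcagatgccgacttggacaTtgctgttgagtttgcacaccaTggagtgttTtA
Aldh1a7: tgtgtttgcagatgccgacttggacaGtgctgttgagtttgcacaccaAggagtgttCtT
Reads were 50 bases long. Of the 2004 windows of that length in the Aldh1a1 transcript, 151 also occur in Aldh1a7, and the authors counted uniquely aligned reads only, so reads from such windows could not be assigned to either gene. For the other 8 genes, no 50-base window was shared with a GENCODE protein-coding transcript of another gene.

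The annotation sets 3 other members apart. Adh5, Aldh2 and Aldh3a2 have 2, 2 and 4 transcripts in the annotation, and genes with more than 1 transcript held 2.55% of all counts although they make up 6112 of the genes. Adh5, which encodes the glutathione-dependent formaldehyde dehydrogenase, had a median of 6 counts in liver, 1 in lung and 3 in kidney, and Aldh3a2, the fatty aldehyde dehydrogenase, had 10, 16 and 16. These 3 genes are compared between tissues where counts allow, and their levels are not set against those of other genes. Whether their counted reads follow the whole gene equally in each tissue and strain was not tested. Liver libraries held between 1738046 and 42158454 counts in total, lung libraries between 2829104 and 17585682 and kidney libraries between 3046695 and 15028553, and 11 libraries had fewer than 4000000.

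Marker genes were checked against the tissue labels. The summed TPM (a level scaled by transcript length and library size) of 5 hepatocyte markers lay between 34152 and 148188 in liver and did not exceed 2347 in lung or 853 in kidney. The 4 alveolar type 2 markers lay at 4585 or more in lung and at 138 or less elsewhere, and the 5 proximal tubule markers at 29866 or more in kidney and at 1648 or less elsewhere. One group of markers split the lung libraries. Krt4, a keratin of stratified squamous epithelium, was at 4.92 TPM or less in 26 lung libraries and at 118 to 3425 TPM in the other 21, and a single liver library, that of CC041, reached 887 TPM. In whole tissue, fewer cells of a type and less RNA per cell cannot be told apart.

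The members divided each tissue differently. Over the 7 genes with 1 transcript, which can be compared by TPM, Adh1 made up a median of 47.8% of the summed level in liver, Aldh1a1 34.4%, Adh4 6.69%, Aldh1a7 6.52% and Aldh1b1 2.23%. In lung, Aldh1a1 alone made up 82.5%, ranging from 62.5% to 89.1% over the strains, and Adh1 7.35%. In kidney, Adh1 took 84.5% and Aldh1a1 9.88%, but the Aldh1a1 share ran from 0.331% to 50.8% between strains. Adh1 and Aldh1a1 thus led in liver, Aldh1a1 in lung and Adh1 in kidney.

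**Figure D1:**
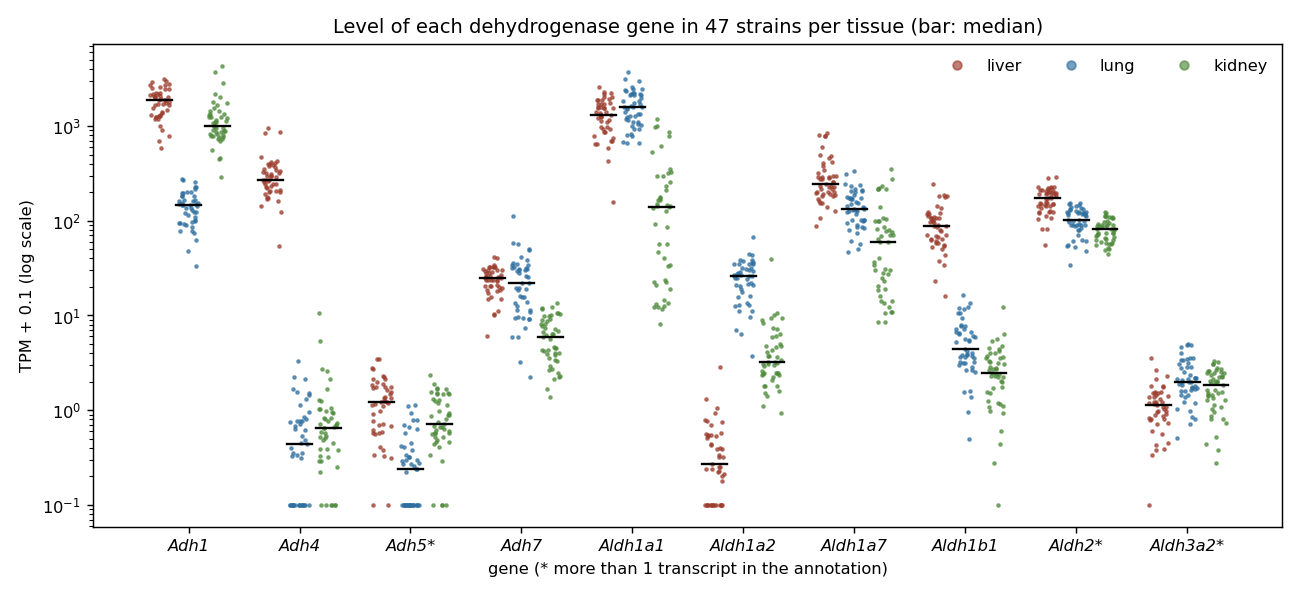
TPM plus 0.1 (log axis) of the 10 genes, with 1 point per library and a bar at the median of the 47 strains of each tissue; genes with an asterisk have more than 1 annotated transcript. Kidney points of Aldh1a1 spread from 7.94 to 1180 TPM, while those of Aldh2 stay between 44.3 and 123.

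Tissues were compared on CPM, counts scaled to library size, after TMM scaling (trimmed mean of M-values), with limma-voom and strain as a block. A gene was called where the Benjamini-Hochberg q was at most 0.1 and the log2 fold change was 1 or more in size. Of the 10 members, 9 passed the low-count filter of more than 1 CPM in at least 30% of libraries, and Adh5 was not tested. Against lung, 7 of the 9 were higher in liver, where 23.9% of the 12127 tested genes were, and 1 was higher in lung, against 31.0%. Against kidney, 7 were again higher in liver (15.6% of all genes) and 1 higher in kidney (20.8%). The 7 in each comparison include Adh4, which passed the low-count filter only through its liver level. Between lung and kidney, 3 were higher in lung (25.5%) and 2 higher in kidney (20.6%), of which Adh4 had few counts in either tissue. The median log2 fold change of the 9 members was 2.23 for liver over lung and 2.98 for liver over kidney, beside medians of -0.06 and 0.00 over all genes, and 0.54 for lung over kidney, beside 0.04. The 3 comparisons share libraries and are not independent of one another.

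Scaling matters for these figures. On the log2(TPM + 1) scale, which applies no TMM factor, the median gene was lower in liver than in lung by 1.21 log2 units and lower than in kidney by 0.72, so changes on that scale are read relative to these shifts. On that scale 4 of the 9 members were called between liver and lung, beside 7973 of the 12127 tested genes. By direction, 3 members were higher in liver, as were 1004 of all genes, and 1 was higher in lung, as were 6969. With a pseudocount of 0.1, 5 members were called, beside 8903 of all genes. Of these members 4 were higher in liver (1104 of all genes) and 1 in lung (7799).

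**Figure D2:**
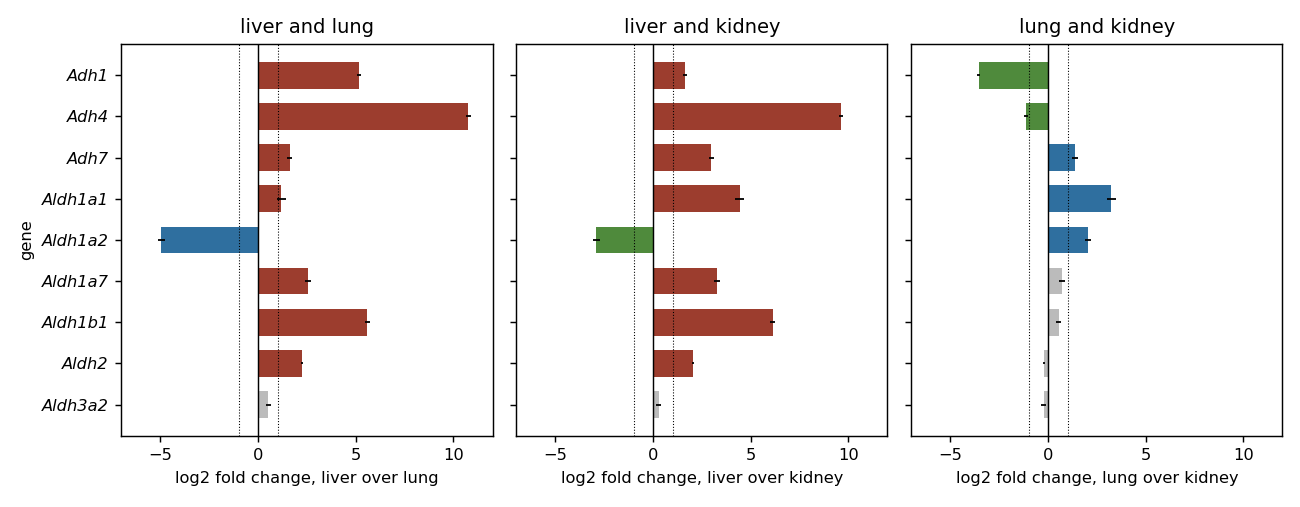
Log2 fold change between tissues (bars) with its standard error (lines) for the 9 tested members; colors mark the tissue with the higher level among called genes, gray bars were not called, and dotted lines stand at the fold threshold. Liver bars of Adh4 and Aldh1b1 extend beyond 5 in both comparisons, and Aldh1a2 is the only called gene lower in liver.

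Among the alcohol dehydrogenases, Adh1, the main ethanol-oxidizing enzyme and also a retinol dehydrogenase, was abundant in liver at 813 to 2173 CPM (median 1420). Kidney libraries held 244 to 1702 CPM (median 464) and lung libraries 19.2 to 71.7 CPM (median 38.4). Liver and lung did not overlap, and liver exceeded kidney in 44 of 47 strains. The log2 fold change was 5.18 ± 0.10 (SE, q = 2.29e-71) for liver over lung, 1.63 ± 0.099 (q = 3.00e-29) for liver over kidney and -3.56 ± 0.10 (q = 1.97e-56) for lung over kidney. The liver-kidney difference was 0.67 on the log2(TPM + 1) scale, where it was not called, and 1.38 above the median gene.

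Adh4, a liver enzyme of class II, had the largest tissue difference of the set. Liver libraries held 106 to 733 CPM (median 203), whereas lung libraries held 0 to 2.29 and kidney libraries 0 to 4.01. Lung libraries had 3 or fewer Adh4 counts in 36 of 47 cases and kidney libraries in 35, so liver stood apart from both without overlap. The fitted log2 fold change was 10.77 ± 0.12 (q = 8.45e-93) over lung and 9.62 ± 0.12 (q = 5.06e-90) over kidney, and such values against near-zero counts depend on the fit. Beside the hepatocyte gene Alb, Adh4 TPM was a median of 0.453% of Alb TPM in liver, 0.30% in lung and 0.563% in kidney, and summed over libraries 0.530%, 0.428% and 0.999%. The kidneys of CC036 (46 counts, 10.4 TPM) and CC029 (5.29 TPM) stood above these shares, with Adh4 at 9.37% and 9.83% of Alb. The part of liver RNA in these lung and kidney libraries was not tested. Adh4 entered the lung-kidney comparison only because its liver level took it past the low-count filter, and with the filter applied to lung and kidney alone it was not tested. Its fitted lung-kidney value (-1.14, q = 8.59e-18) therefore rests on a median of 1 and 2 counts and was not called in the fit without the block (-0.98) or without strains under 4000000 counts (-0.90).

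Adh7, the retinol-active class IV enzyme known from stomach and other upper digestive epithelia, was lower in abundance and uneven in lung. Liver libraries held 17.5 to 42.6 CPM (median 28.3), kidney libraries 0.772 to 8.87 (median 3.73) and lung libraries 1.67 to 45.5 (median 8.06). Liver and kidney did not overlap, while the lung range covered the liver range and most of the kidney range. The log2 fold change was 1.61 ± 0.13 (q = 8.88e-22) for liver over lung, 2.98 ± 0.13 (q = 6.18e-40) for liver over kidney and 1.38 ± 0.13 (q = 2.39e-17) for lung over kidney. Liver over lung came to 0.20 on the log2(TPM + 1) scale, 1.41 above the median gene, and was not called there. Without the 21 strains whose lung library held Krt4, lung over kidney fell to 0.83 and was not called.

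Adh5 could be followed only as a trace. Its TPM was 0 to 3.40 in liver (median 1.13), 0 to 1.04 in lung (median 0.140) and 0 to 2.27 in kidney (median 0.610), with 3 or fewer counts in 14, 45 and 28 libraries. The gene's level is not resolved by so few counts.

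The aldehyde dehydrogenases of the acetaldehyde route were both mitochondrial enzymes. Aldh2, the principal one, held 213 to 686 CPM in liver (median 391), 41.1 to 124 in lung (median 85.3) and 70.6 to 158 in kidney (median 100.4). Liver lay above both other tissues in every strain without overlap, by 2.23 ± 0.054 (q = 5.97e-63) over lung and 2.03 ± 0.054 (q = 6.67e-59) over kidney. The limit given above for genes with more than 1 transcript holds for these Aldh2 values. Liver over lung was 0.72 and not called on the log2(TPM + 1) scale, where it was 1.93 above the median gene. Lung and kidney differed by -0.21 ± 0.054, which is under the fold threshold. On the log2(TPM + 1) scale this difference was 0.32, or -0.14 relative to the median gene. Aldh1b1, a relative of Aldh2 with 69.5% identity in coding sequence, was far more restricted, at 32.4 to 254 CPM in liver (median 118), 0.379 to 6.41 in lung (median 2.41) and 0 to 8.95 in kidney (median 1.77). Liver exceeded lung by 5.59 ± 0.13 (q = 2.87e-65) and kidney by 6.12 ± 0.13 (q = 6.57e-67), again with no overlap. Aldh1b1 was a median of 5.95% of Alb TPM in lung and 4.89% in kidney, beside 0.131% in liver.

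Among the retinal dehydrogenases, Aldh1a1 was high in both liver and lung. Liver libraries held 567 to 2959 CPM (median 1613), lung libraries 293 to 1279 (median 708) and kidney libraries 7.03 to 837 (median 87.2). Both liver and lung ranges overlapped that of kidney, because a few kidneys reached liver levels. The log2 fold change was 4.44 ± 0.23 (q = 1.53e-34) for liver over kidney and 3.24 ± 0.23 (q = 5.54e-25) for lung over kidney. Liver over lung was 1.19 ± 0.23 (q = 1.02e-06) and depended on scaling, at 0.95 with DESeq2 size factors and -0.31 on the log2(TPM + 1) scale, where neither was called. The latter is 0.90 above the median gene of that comparison.

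Aldh1a7, the rodent paralog of Aldh1a1, followed it at a lower level, with 146 to 942 CPM in liver (median 301), 29.2 to 125 in lung (median 61.7) and 5.15 to 234 in kidney (median 38.7). Liver exceeded lung without overlap by 2.55 ± 0.15 (q = 4.79e-30) and exceeded kidney by 3.27 ± 0.15 (q = 9.52e-38). On the log2(TPM + 1) scale liver over lung was 0.99, 2.20 above the median gene, and was not called. Lung over kidney was 0.71 ± 0.15, under the threshold, and was called on both TPM scales and by DESeq2 (1.07).

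Aldh1a2, the main retinoic acid-forming enzyme of the embryo, was lowest in liver. Lung libraries held 3.99 to 28.5 CPM (median 11.6), kidney libraries 0.591 to 32.1 (median 2.43) and liver libraries 0 to 3.08 (median 0.264), with 3 or fewer counts in 32 livers. Lung and liver did not overlap, and lung exceeded kidney in 45 of 47 strains. The log2 fold change was -4.95 ± 0.17 (q = 1.95e-49) for liver over lung, -2.90 ± 0.17 (q = 7.16e-31) for liver over kidney and 2.04 ± 0.15 (q = 2.69e-23) for lung over kidney. Aldh3a2 was at a median of 1.88 CPM in liver, 1.44 in lung and 1.76 in kidney, and none of its differences, from -0.23 to 0.52, reached the fold threshold.

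Members whose 47 libraries did not overlap between tissues were 6 of 9 for liver and lung, where 25.8% of tested genes did not overlap. They were 4 of 9 for liver and kidney (13.2%) and 1 of 9 for lung and kidney (22.4%). Adh4 is among the 6 and the 4. It was tested only because of its liver level, so its lack of overlap is not independent of the low-count filter.

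Lists of related genes were examined next, and differences between the lists were not tested. Over all tested genes, 23.9% were higher in liver and 31.0% in lung for that pair. The shares were 15.6% in liver and 20.8% in kidney, and 25.5% in lung and 20.6% in kidney, for the other pairs. Among the other ADH and ALDH genes, 12 of 17 listed could be tested, and 8 were higher in liver than lung and 3 lower. Between liver and kidney 1 was higher in liver and 4 in kidney, and between lung and kidney 9 were higher in kidney and 1 in lung. Their median log2 fold change was 2.80 for liver over lung, -0.30 for liver over kidney and -2.98 for lung over kidney. Of the 12 tested, 2 (Adhfe1 and Aldh6a1) have more than 1 annotated transcript. Aldh8a1, a dehydrogenase of the kynurenine pathway, was at a median of 408 CPM in liver, 294 in kidney and 0.440 in lung, giving 9.65 ± 0.090 for liver over lung (q = 4.69e-100). Aldh1l1, the cytosolic 10-formyltetrahydrofolate dehydrogenase, had 2216 CPM in liver, 557 in kidney and 13.6 in lung, and was the 1 gene of this list called higher in liver than kidney, by 2.07 ± 0.049 (q = 2.81e-63). Its mitochondrial counterpart Aldh1l2 was lower in liver than kidney (-2.85 ± 0.18, q = 2.91e-28), as was Aldh1a3, a retinal dehydrogenase, at -2.35 ± 0.22 (q = 4.11e-18).

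Of the 19 retinoid-handling genes, 11 were tested. Between liver and lung 4 were higher in liver and 1 in lung, between liver and kidney 6 were higher in liver and 1 in kidney, and between lung and kidney 6 were higher in lung and 2 in kidney. Rdh16, a microsomal retinol dehydrogenase, had medians of 127 CPM in liver, 161 in kidney and 0.219 in lung, a difference of 8.79 ± 0.21 for liver over lung (q = 1.44e-62). Lrat, which esterifies retinol for storage, was at 72.1 CPM in lung and 5.64 in kidney, higher in lung by 3.68 ± 0.13 (q = 7.00e-48). Of the 11 tested, 5 have more than 1 annotated transcript, the kind of gene that held few counts, and their levels may be understated. One of them, Rbp4, the plasma carrier of retinol, had a median of 13.9 CPM in liver, 0.244 in lung and 0 in kidney. It passed the low-count filter through its liver level and counts among the genes higher in liver in both comparisons. Its fitted liver-lung value of 5.83 ± 0.11 (q = 6.07e-72) rests on near-zero lung counts and depends on the fit.

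All 5 genes listed for ethanol, acetate and formaldehyde were tested. Against lung, 4 were higher in liver and 1 lower, and all 5 were higher in kidney than lung. Between liver and kidney 2 were higher in liver, 1 was higher in kidney and 2 were not called. Of the 5, Esd has more than 1 annotated transcript and few counts, at a median of 0.191 CPM in lung and 1.42 in kidney. Cyp2e1, the microsomal ethanol-oxidizing cytochrome, reached 7856 CPM in liver, 1685 in kidney and 21.1 in lung (liver over kidney 2.22 ± 0.091, q = 1.79e-42). Cat, which encodes catalase, was higher in liver by 4.44 ± 0.035 over lung and 2.28 ± 0.035 over kidney. Acss1, the mitochondrial enzyme that activates acetate, went the other way, at 0.986 CPM in liver, 49.5 in lung and 154 in kidney, and was lower in liver than kidney, at -6.92 ± 0.11 (q = 1.05e-80).

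Strains were compared within a tissue on TMM-normalized TPM. Kidney Aldh1a1 varied most among the members. It ran from 10.2 in CC031 to 1228 in CC006 with a median of 129, a ratio of 120.2 between the extremes and of 49.3 between the 90th and 10th percentiles. The SD of its log2 level was 2.0, above that of 99.6% of the 10806 genes past the filter in kidney, whose median SD was 0.33. Aldh1a7 in kidney was next, from 7.38 in CC036 to 341 in CC039 (median 56.2, SD 1.4, above 98.6% of genes). In liver and lung the same genes were far less spread, with an SD of 0.51 and 0.46 for Aldh1a1 and 0.66 and 0.43 for Aldh1a7. Kidney values formed a continuous series, with no gap that would divide the strains into classes.

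The strains with high kidney Aldh1a1 were those with high Aldh1a7. CC006 had 1228 and 273, CC039 had 1134 and 341, and CC049 had 811 and 192. At the other end, CC031 had 10.2 and 13.8, CC019 had 10.8 and 16.5, and CC036 had 12.8 and 7.38. Aldh1a7 stood at a median of 51.9% of Aldh1a1 in kidney, 16.7% in liver and 8.49% in lung. It exceeded Aldh1a1 in 7 of 47 kidneys, all with Aldh1a1 at 18.8 or less, and reached 188% there. Correlation used rank inverse normal values over the 47 strains with 100000 permutations, whose smallest p is 1e-05, and adjusted values over the 22 pairs of members examined. The pair had r = 0.856 in kidney (rho = 0.869, permutation p = 1e-05, q = 1.10e-04; r = 0.843 without the 2 farthest strains) and r = 0.741 in lung (rho = 0.743, p = 1e-05, q = 1.10e-04; 0.704 without the 2 farthest). In liver r was -0.251 (rho = -0.30, permutation p = 0.0894, q = 0.281). The differences between these correlations were not tested.

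**Figure D3:**
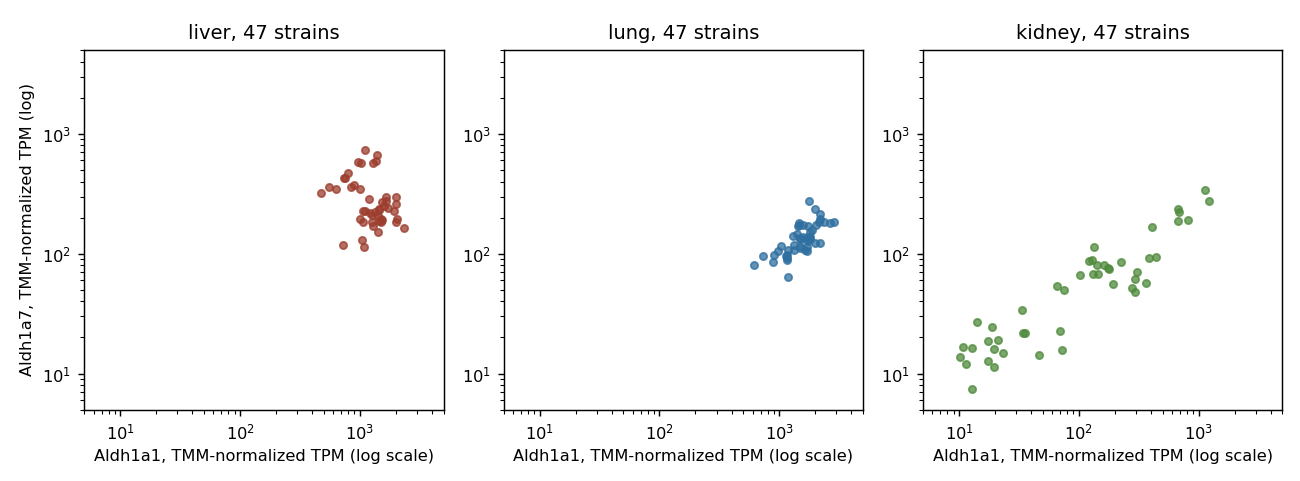
Aldh1a7 against Aldh1a1 in liver, lung and kidney as TMM-normalized TPM on log axes with the same limits, 1 point per strain. Kidney strains extend along a rising band from 10.2 to 1228 on the Aldh1a1 axis, lung strains form a short rising cloud, and liver strains lie between 476 and 2327 with no such rise.

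The sequence just before the starts of these genes is printed because the genes moved together in kidney and lung. The windows hold the 150 bases before a RefSeq start on GRCm38.p6, chr19:20601818-20601967 on the plus strand for Aldh1a1 and chr19:20727557-20727706 on the minus strand for Aldh1a7, with each CCAAT in capitals. Aldh1a1 has a further RefSeq start, whose 300-base window at chr19:20492333-20492632 held no CCAAT. That window is not printed and was not compared.
Aldh1a1: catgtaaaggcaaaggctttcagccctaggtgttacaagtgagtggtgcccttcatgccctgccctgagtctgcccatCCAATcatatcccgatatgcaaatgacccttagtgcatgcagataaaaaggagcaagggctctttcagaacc
Aldh1a7: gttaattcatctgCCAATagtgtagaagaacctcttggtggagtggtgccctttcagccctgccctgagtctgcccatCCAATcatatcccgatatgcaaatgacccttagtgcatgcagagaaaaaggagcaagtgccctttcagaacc
Aligned over their length the windows were 77.9% identical. Of the last 75 bases 72 were the same, and a run of 65 bases was shared without a difference. Both held CCAAT at position -72, counted from the start, and Aldh1a7 held a further one at -137. Aldh1a1 also has a further CCAAT at -2, which the edge of the printed window cuts. It is whole in the 300-base window, which runs past the start. CCAAT, searched on both strands, occurred in 37.4% of the 32851 promoter windows of 300 bases in the RefSeq table, and a match here is a description of letters and not of a binding site.

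Genes close to each other on a chromosome are usually inherited together in a CC strain, so neighbors were examined. Among the 20 genes whose kidney level was most strongly related to Aldh1a1, up or down, 6 started within 10 Mb of it (Aldh1a7, Pcsk5, Gda, Ostf1, Ak3 and Gna14), whereas 0.661% of the 9682 kidney genes with a position lie that close. These genes were named after their values were seen. Pcsk5, a proprotein convertase gene 3.17 Mb before Aldh1a1, had rho = -0.620, and Gda, the guanine deaminase gene 0.789 Mb after it, had rho = -0.559, so both were low where Aldh1a1 was high. Apart from Aldh1a7 the highest positive values were those of the interferon-induced GTPases Gbp2 (0.506) and Gbp6 (0.503) and of the complement gene C4b (0.50), none of which lies on chromosome 19. For Aldh1a7 in kidney 3 of 20 lay within 10 Mb (Aldh1a1, Gda and Pcsk5). In lung there were 2 of 20 for Aldh1a1 (Aldh1a7 and Ms4a4d) and 1 of 20 for Aldh1a7 (Aldh1a1). In liver there were 0 of 20 for either gene.

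Few members kept their strain order from tissue to tissue. Of 20 relations between tissues, 2 passed q of at most 0.1. Aldh1a7 in liver and kidney had r = 0.630 (rho = 0.613, permutation p = 1e-05, q = 2.00e-04; 0.628 without the 2 farthest). CC006 had 273 in kidney and 663 in liver and CC039 had 341 and 569, while CC036 had 7.38 and 118. For Aldh1a1 in liver and kidney r was -0.298 (rho = -0.367, permutation p = 0.0430, q = 0.202), which did not pass. Aldh1a7 in lung had r = -0.0630 with liver and -0.246 with kidney, and neither passed.

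**Figure D4:**
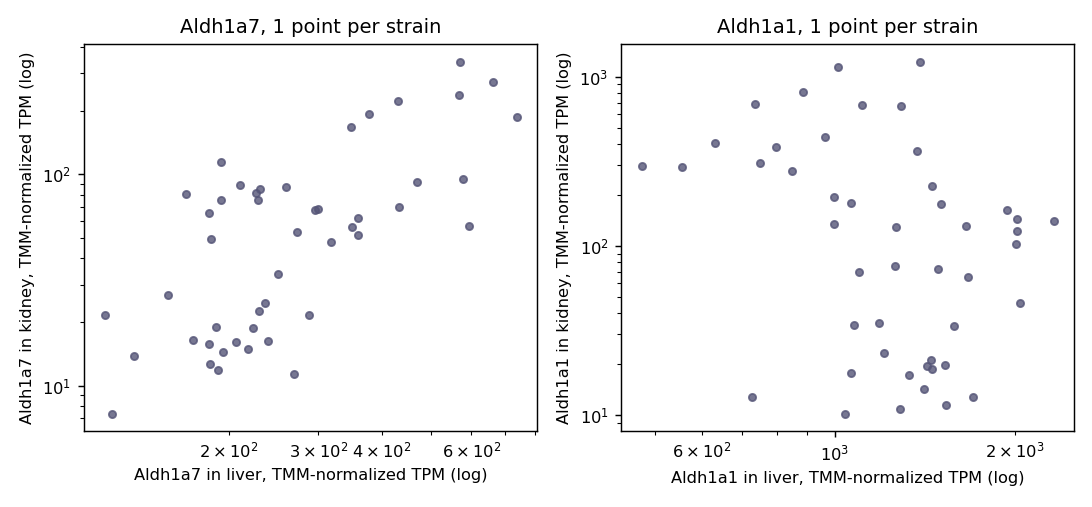
Kidney against liver level of Aldh1a7 and Aldh1a1 as TMM-normalized TPM on log axes, 1 point per strain. Strains with the highest kidney Aldh1a7 (237 to 341) have 567 to 663 in liver, and no such rise is seen for Aldh1a1.

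Aldh2 also passed between liver and kidney, with r = 0.420 (rho = 0.413, permutation p = 0.00361, q = 0.0361), but the relation was weaker and fell to r = 0.345 (q = 0.211) without the 2 farthest strains. It also did not pass without strains that had a library under 4000000 counts (r = 0.372, q = 0.225), without strains whose lung held Krt4 (0.156, q = 0.771) or without TMM (0.0778). Aldh2 was steady in all tissues, with an SD of log2 level of 0.28 in liver and lung and 0.32 in kidney.

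Adh1 was steady in liver (1023 to 2658, SD 0.34, beside a median of 0.34 over all genes) and more variable in kidney (556 to 3818, SD 0.64, above 88.6% of genes). In kidney it rose with its cluster neighbor Adh7, from strains such as CC053 (556 for Adh1 and 5.25 for Adh7) to CC029 (3278 and 11.8) and CC036 (3818 and 10.8). The relation was r = 0.563 (rho = 0.605, permutation p = 7.00e-05, q = 5.13e-04; 0.561 without the 2 farthest). In liver (r = -0.116) and lung (r = 0.135) the same pair did not pass. Among the kidney genes most like Adh1 were the steroid dehydrogenase gene Hsd17b11 (rho = 0.757), the organic anion transporter Slco1a1 (0.746), Ntn1 (0.714) and Cyp4a12a (0.689), chosen after their values were seen, and Slco1a1 and Cyp4a12a are known for higher expression in male than female mouse kidney. None of the 20 genes most strongly related to Adh1 started within 10 Mb of it.

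Kidney Adh1 also moved with the 5 proximal tubule markers (r = 0.444, rho = 0.386, permutation p = 0.00157, q = 0.0143 over the 44 relations with marker lists), a relation that did not pass without strains under 4000000 counts (r = 0.292, q = 0.408) or without the strains whose lung held Krt4 (r = 0.520, q = 0.145 with 26 strains). It was inversely related to kidney Aldh1a1 (r = -0.413, rho = -0.413, permutation p = 0.00422, q = 0.0232). CC025 and CC036 combined high Adh1 (2950 and 3818) with Aldh1a1 at 12.8, whereas CC029 had both high, at 3278 and 276.

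In lung, Adh7 varied most of the tested members (3.73 to 97.1, median 17.2, SD 0.90, above 94.8% of genes). The lung libraries with Krt4 had a median Adh7 of 25.1 (10.4 to 97.1) and those without it 14.6 (3.73 to 59.7). Of the 6 highest, CC059 (97.1), CC042 (87.9), CC031 (55.9), CC013 (53.7) and CC028 (44.0) held Krt4 at 1101 or more, and CC049 (59.7) held it at 3.0. As the libraries fall into separate groups, no correlation over all of them is given. A marker list was scored as the mean of the rank inverse normal values of its genes past the TPM filter. For the squamous list in lung these were 3 of 5, Krt5, Krt4 and Sprr1a. Within the 21 libraries with Krt4, Adh7 and this score had r = 0.645 (rho = 0.651, permutation p = 0.00176, q = 0.00352 over the 2 groups; 0.608 without the 2 farthest). Within the other 26, r was 0.325 (rho = 0.268, permutation p = 0.106, q = 0.106). Krt14 was at 0.40 TPM or less in every lung library. The part of squamous epithelium in lung Adh7 was not tested beyond these values. The liver library of CC041, with Krt4 at 727, had Adh7 at 27.7, inside the range of the other livers.

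**Figure D5:**
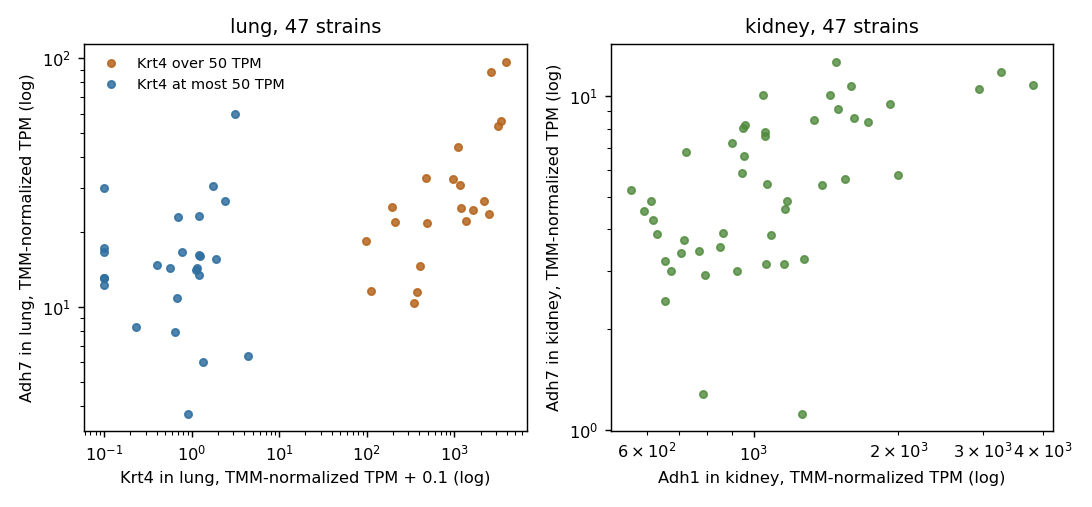
Left, Adh7 against Krt4 (plus 0.1) in lung, colored by whether the library held Krt4 over 50 TPM; right, Adh7 against Adh1 in kidney; all as TMM-normalized TPM on log axes, 1 point per strain. The 4 strains with the highest Adh7 among the Krt4 libraries lie between 53.7 and 97.1, and in kidney Adh7 is higher in strains with more Adh1.

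Aldh1a1 and Aldh1a7 in lung were related to the 4 club cell markers (Scgb1a1, Scgb3a2, Cyp2f2 and Cbr2), secretory cells of the airway lining. The values were r = 0.450 (rho = 0.428, permutation p = 0.00162, q = 0.0143) for Aldh1a1 and r = 0.559 (rho = 0.566, permutation p = 5.00e-05, q = 7.33e-04) for Aldh1a7. With the 26 strains that lacked Krt4 in lung, r was 0.372 (q = 0.271) and 0.559 (q = 0.145), and without strains under 4000000 counts Aldh1a1 did not pass (0.353, q = 0.306). Neither followed the squamous list (r = -0.0782 and -0.142).

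Lung Aldh1a2 moved with the 5 mesothelial markers (r = 0.555, rho = 0.434, permutation p = 3.00e-05, q = 6.60e-04), the cells that cover the lung surface, at r = 0.434 without the 2 farthest strains and 0.464 (q = 0.239) in the 26 strains without Krt4. Its lung level ran from 8.21 in CC044 to 53.6 in CC039, and Surf4 had the most similar pattern (rho = 0.543). In kidney 1 strain stood apart, CC020 at 42.9 against 13.6 for the next and a median of 3.19. That library, with 99 Aldh1a2 counts, also had the highest kidney level of Lcn2, at 153 TPM beside a median of 5.22. Lcn2 is known to rise in injured tubules. Kap was at 32406 TPM there, beside a median of 87761. The next strain, CC016, had Lcn2 at 2.95 and Kap at 26102 TPM, and the third, CC030 (9.88), had 20.2 and 92452. A relation of kidney Aldh1a2 to these genes was not tested.

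In liver, Adh1, Adh4, Adh5, Aldh1a1, Aldh1a7, Aldh1b1 and Aldh2 were set against pericentral and periportal markers and against targets of the receptors CAR and PPAR-alpha. Of 28 such relations 0 passed, and 2 had an unadjusted permutation p under 0.05, Aldh1b1 with the periportal list (r = 0.294, rho = 0.312, permutation p = 0.0448, q = 0.278) and Adh5, at its trace counts, with the pericentral list (r = -0.346, rho = -0.432, permutation p = 0.0170, q = 0.125). Aldh1a7 varied most there (114 to 736, SD 0.66), followed by Adh4 (132 in CC062 to 919 in CC023, SD 0.62) and Aldh1b1 (23.4 in CC031 to 175 in CC068, SD 0.60), above 88.5%, 86.5% and 85.8% of liver genes, while Adh7 (13.9 to 33.3, SD 0.27) and Aldh2 were among the steadier ones. Genes with the most similar liver pattern included Hsd17b11 for Aldh2 (rho = 0.660), Aldh1l1 for Aldh1b1 (0.559), Camkmt for Adh4 (0.569), Eef1a1 for Adh1 (0.570), Prdm2 for Adh7 (0.570), C730002L08Rik for Aldh1a1 (0.589) and Snhg9 for Adh5 (0.576), each over 47 strains and 9001 genes. Aldh1b1 was the liver member with the most neighbors in its list, 4 of 20 within 10 Mb (Npr2, Col15a1, Gm3893 and Ube2r2) beside 0.809% of genes.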

How the data were processed

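Whole liver, lung and kidney of the 47 strains were measured by ribosomal RNA-depleted, 50-base single-end RNA-seq. Per the submitters' processing notes and the paper's methods, the authors filtered reads, aligned them with STAR 2.5.3a to strain-specific mm9 pseudo-genomes and quantified unique alignments with RSEM. The expected counts and the TPM values deposited by the authors were used. The deposited FPKM values were not used. Expected counts were rounded, and 25 values over all files differed from a whole number at the precision deposited.

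Counts were TMM-scaled in edgeR 4.0.16. Tissues were fitted in R 4.3.3 by voom and limma 3.58.1, and strain was the replicate block. No batch is in the labels, so none was modeled. The strain numbers pair tissues of 1 mouse, and the median correlation of same-strain deviations was 0.167 to 0.212 over tissue pairs. Correlations across strains used genes with TMM-normalized TPM over 1 in more than 50% of a tissue's libraries and rank values with offset 0.375. Aldh1a2 and Aldh3a2 in liver and Adh4 and Adh5 in lung and kidney did not pass this filter. The SD of a member was ranked among genes with TPM over 1, without TMM, in at least 50% of the libraries. The named genes were all members, the 3 genes with the highest rho to a member in its tissue of highest median CPM (the first of them is given; some are not reported here), and at most 3 genes per related list and tissue pair with the largest change past the threshold. The members, lists, tests and their alternatives were chosen with earlier results of these data known. DESeq2 1.42.0, edgeR's quasi-likelihood test, other scalings, filters and strain subsets were alternatives. A count of 3 equals 0.288, 0.321 and 0.364 CPM at the median depth of liver, lung and kidney, for counting error only. Python 3.11.15, scipy 1.17.1 and biopython were used.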

Additional observations from a re-analysis of the deposited data

How the results depend on the processing

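The count of members called between liver and lung was 8 and fell to 4 on log2(TPM + 1) and 5 on log2(TPM + 0.1). Over all 12127 tested genes the calls rose from 6664 to 7973 and 8903 on these scales. Between lung and kidney 5 members were called, beside 5591 of all tested genes. This fell to 3, beside 5466 of 11967 genes, without the strains with Krt4 in lung. That setting was added after seeing the data. The fit with no replicate block called 8 members between liver and lung, 8 between liver and kidney and 4 between lung and kidney, where Adh4 was lost (-0.98). Over all tested genes that fit called 6693, 4451 and 5618. Directions reversed on the TPM scales only. With pseudocounts of 1 and 0.1, Aldh1a1 liver over lung was -0.31 and -0.31. Liver Aldh3a2 was -0.59 and -1.0 over lung and -0.36 and -0.62 over kidney. Lung over kidney was 0.32 and 0.33 for Aldh2 and 0.23 and 0.38 for Aldh3a2. Relative to the median gene of each comparison, all of these values kept the sign of the main fit. They were 0.90 and 1.21 for Aldh1a1, and 0.62 and 0.52 over lung and 0.36 and 0.32 over kidney for liver Aldh3a2. For lung over kidney they were -0.14 and -0.23 for Aldh2 and -0.23 and -0.18 for Aldh3a2. TPM without TMM raised the relations passing between members from 4 to 17 and with marker lists from 5 to 35, lowered those between tissues from 2 to 1, and turned Aldh1a1 with Aldh1a7 in liver from -0.251 to 0.145. Without strains under 4000000 counts, 1 relation between tissues and 3 with marker lists passed. Without the 2 farthest strains 1 between tissues passed, and without strains with Krt4 in lung, which leaves 26, 0 with marker lists passed the permutation test, although 5 had an unadjusted p of r under 0.05. The causes were not tested. Of 350 alternative values of members' log2 fold changes, 320 kept direction and call, 16 lost and 4 gained the call and 10 reversed. Low counts limit Adh5 in all tissues, Adh4 outside liver and Aldh1a2 in liver.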
